A study of Mus musculus with 5 samples.

Results

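Complement genes of the mouse kidney were followed across cell classes after ischemia-reperfusion injury. The members were the rows with the symbols C1qa, C1qb, C1qc, C3, C4b, Cfb, Cfp, C3ar1 and C5ar1, which made 9 of the 32285 genes counted. All 9 were found by symbol. The study profiled dissociated kidney from male C57BL/6J mice after unilateral ischemia-reperfusion (UIR), in which the left renal pedicle was clamped, and from sham-operated mice without a clamp. Kidneys were taken on days 1, 3, 14 and 28 after UIR, which with sham gave 5 groups, and the labels list 1 sample per group and name 3 mice for each. The study's methods count several matrices per group, and how these relate to the libraries is not given in the sources used here. Tissue was digested with enzymes and freed of red cells by lysis before droplet capture of 3′ ends. The counts came as 5 libraries, numbered 1 to 5 by the barcode suffix, and the labels did not tie a suffix to a group. The whole matrix was therefore read as 1 pool of cells, libraries are given by number only, and no test between groups was possible.

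The labels gave goblet cell as the cell type. Goblet markers were almost absent, since Muc2, Tff3, Clca1, Fcgbp, Spink4 and Zg16 reached at most 0.128 CPM (counts of a gene per 1000000 UMIs) over all kept cells and Zg16 was at 0. The proximal tubule genes Slc34a1, Lrp2 and Miox stood at 2972, 760 and 2158 CPM, so the cells are called kidney cells below. The libraries held 82426945 to 139382799 UMIs (unique molecular identifiers, counted molecules) over all barcodes. After calling and filtering, 57752 cells were kept, with library medians of 4038 to 5326 UMIs per cell. Of 57398 barcode sequences, 353 occurred in more than 1 library.

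Complement is a cascade of plasma proteins that tags surfaces and releases inflammatory fragments. C1q starts the classical pathway by binding antibody and cell debris, C4 and C3 are cleaved and deposited, and factor B and properdin drive the alternative pathway that amplifies C3 cleavage. The fragments C3a and C5a signal through the anaphylatoxin receptors C3aR1 and C5aR1 on leukocytes. Liver is the main source of many, but not all, of the plasma proteins, and in kidney, tubule cells and macrophages are known to make complement locally.

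Each cell was put in a class from marker genes that did not include any of the 9 members. A cell needed 2 or more markers of its class and little of any other lineage. Of the kept cells, 51869 fell in 18 named classes, 5.52% carried markers of more than 1 lineage and were set aside as mixed, and 4.66% had no class. The gate left 1332 cells with a second-lineage score close to its limit and 1239 cells with a top score close to the minimum. Levels are CPM of UMIs summed over a class, with exact Poisson 95% intervals, and shares of cells have Clopper-Pearson 95% intervals. Both cover counting error only, so they say nothing of the spread between animals. Because deeper cells show more genes, shares are also given after each cell was thinned to 1000 UMIs, which left out 7745 shallower cells. Captured 3′ ends differ between genes, so levels are compared between classes for the same gene.

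Levels of the 9 genes in the 17 classes with at least 50 cells are plotted together. The C1q chains were highest in macrophage-like cells, C3 in injured epithelial-like cells, Cfb in proximal tubule-like cells, Cfp in dendritic-like cells, C3ar1 in macrophage-like cells and C5ar1 in neutrophil-like cells. C4b was low in every class.

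**Figure D1:**
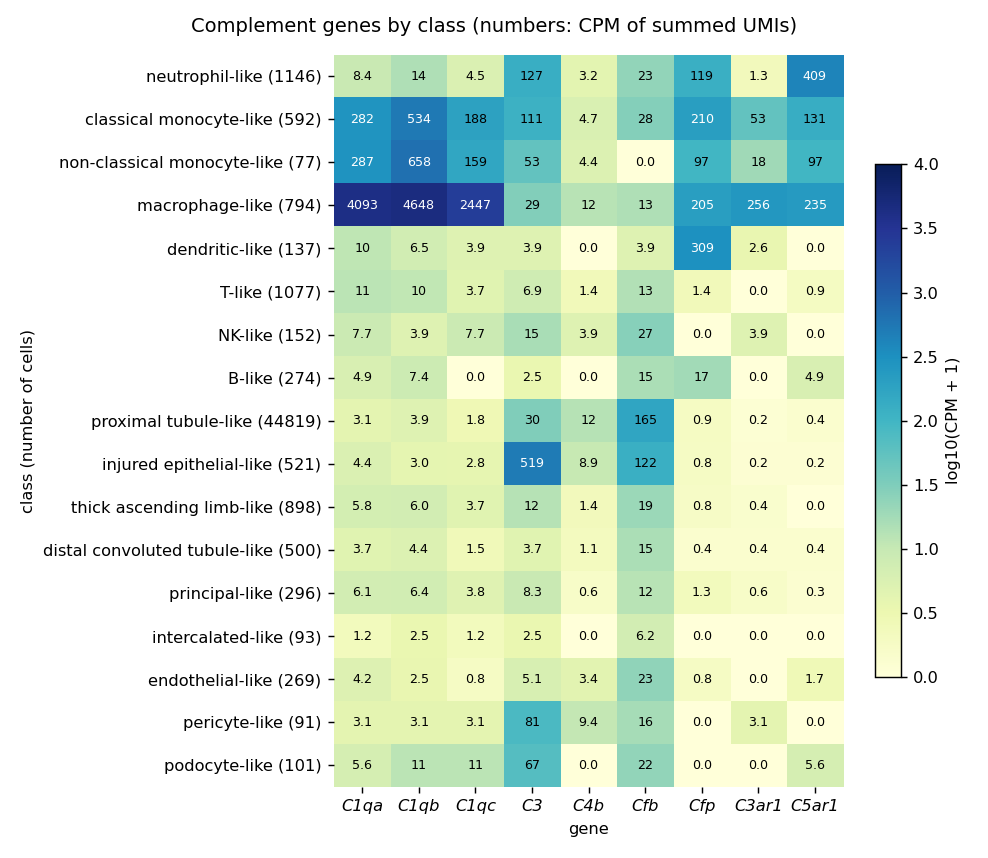
Level of each complement gene (columns) in each class (rows, number of cells in brackets). Colour is log10(CPM + 1) and the printed number is the CPM of summed UMIs. The C1q columns are dark in macrophage-like cells (4093, 4648 and 2447 CPM), C3 is darkest in injured epithelial-like cells (519 CPM) and Cfb in proximal tubule-like cells (165 CPM).

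Promoters were read to show the sequences next to transcripts of macrophages and of injured tubule. RefSeq promoters (assembly GRCm38.p6, 250 bases before to 50 after the start) were on hand for 6 members, C1qb, C1qc, C3, Cfp, C3ar1 and C5ar1. The macrophage-highest genes C1qb, C1qc and C3ar1 are printed with C3, which was highest in injured epithelium. Capitals mark matches on either strand to GAGGAA (the core bound by the myeloid factor PU.1), TATAAA (a core promoter element), or to GGGA and CC with any 4 bases between them (resembling an NF-kB site). Overlapping matches are merged.
C1qb (chr4:136886151-136886450, minus strand): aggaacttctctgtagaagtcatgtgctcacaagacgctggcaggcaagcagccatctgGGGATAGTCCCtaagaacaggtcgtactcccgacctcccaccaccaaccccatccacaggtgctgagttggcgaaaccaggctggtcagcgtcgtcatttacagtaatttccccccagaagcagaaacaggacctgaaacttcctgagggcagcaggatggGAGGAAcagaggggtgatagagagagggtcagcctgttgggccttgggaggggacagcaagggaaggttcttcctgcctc
C1qc (chr4:136892865-136893164, minus strand): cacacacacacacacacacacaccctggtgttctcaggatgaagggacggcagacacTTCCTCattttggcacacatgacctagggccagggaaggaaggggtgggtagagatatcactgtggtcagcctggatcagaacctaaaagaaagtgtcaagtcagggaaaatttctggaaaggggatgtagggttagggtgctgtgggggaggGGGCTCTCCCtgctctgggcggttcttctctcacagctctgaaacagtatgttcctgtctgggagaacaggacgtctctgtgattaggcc
C3ar1 (chr6:122856108-122856407, minus strand): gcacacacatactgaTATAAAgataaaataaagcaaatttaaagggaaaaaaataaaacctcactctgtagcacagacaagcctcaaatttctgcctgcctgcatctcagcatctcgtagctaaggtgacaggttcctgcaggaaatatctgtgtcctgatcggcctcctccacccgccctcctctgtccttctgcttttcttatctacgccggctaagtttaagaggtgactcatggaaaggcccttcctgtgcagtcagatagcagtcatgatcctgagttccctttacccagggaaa
C3 (chr17:57228087-57228386, minus strand): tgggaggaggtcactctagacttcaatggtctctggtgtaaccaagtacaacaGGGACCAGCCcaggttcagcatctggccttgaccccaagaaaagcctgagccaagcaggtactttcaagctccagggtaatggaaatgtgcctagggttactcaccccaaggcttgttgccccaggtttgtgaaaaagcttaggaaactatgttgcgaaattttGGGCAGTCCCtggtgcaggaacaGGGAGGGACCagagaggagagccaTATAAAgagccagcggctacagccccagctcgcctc
GAGGAA had 1 match in C1qb, 1 in C1qc and 2 in Cfp, and no match in the windows of C3, C3ar1 or C5ar1. It occurs in 28.3% of all 32851 promoters of this length. TATAAA had 1 match in C3 and 1 in C3ar1, against 13.6% of promoters. The C3 match began at base 265 of the window, after the annotated start, and the C3ar1 match at base 16, far before it. The NF-kB-like motif had 3 matches in C3, 2 overlapping ones in C1qb and 1 in C1qc, against 20.7% of promoters. These are matches of letters, and binding was not measured. The C1q genes lie side by side on chromosome 4 (C1qb at 136880129 to 136886187, C1qc at 136889804 to 136893065 and C1qa at 136895917 to 136898803, GRCm38), all on the minus strand.

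C1qa, C1qb and C1qc encode the A, B and C chains that assemble into C1q. In the 794 macrophage-like cells C1qa stood at 4093 CPM (4035 to 4152), C1qb at 4648 CPM (4586 to 4711) and C1qc at 2447 CPM (2402 to 2493). Classical monocyte-like cells came to 282 CPM (261 to 304) of C1qa, 534 CPM (505 to 564) of C1qb and 188 CPM (171 to 207) of C1qc. The intervals of non-classical monocyte-like cells overlapped these, at 287 CPM (222 to 366) of C1qa and 658 CPM (557 to 773) of C1qb. Every other named class stood at 13.6 CPM or less for each chain, while the mixed and unclassed cells set aside above had 162 and 157 CPM of C1qa.

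C1qa was seen in 87.3% of macrophage-like cells and in 15.5% of classical monocyte-like cells, or 80.9% and 9.47% after thinning. T cells do not make C1q, and the T-like class, with a median of 1688 UMIs against 4276.5 in macrophage-like cells, gave 1.11% of cells with a C1qa UMI, or 0.708% after thinning. That share was taken as the background from free RNA in the droplets. Proximal tubule-like cells stood at 3.09 CPM of C1qa, and 220 of their 802 C1qa UMIs were in 197 cells that fell in the cluster with most macrophage-like cells (726 CPM, 633 to 829). The other 44622 stood at 2.25 CPM (2.07 to 2.44). Empty barcodes held 75.7, 70.7, 8.43, 24.6 and 1.59 CPM of C1qa in libraries 1 to 5, and all kept cells, in the same order of libraries, 167, 143, 26.8, 63.6 and 9.97 CPM. The part of free RNA and of doublets in the tubule level was not tested.

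The summed chains were 11.1-fold (10.7 to 11.6) higher in macrophage-like than in classical monocyte-like cells, a log2 ratio of 3.48. The ratio was 6.76, 12.8, 6.26 and 8.60 in libraries 1 to 4, so macrophage-like cells were higher in all 4 libraries that held at least 20 cells of both classes. The pooled ratio lay above those of libraries 1, 3 and 4, and it mixed unequal libraries. Library 3 held 410 of the 592 classical monocyte-like but 145 of the 794 macrophage-like cells. Of the 9 members, 4 were at least 4-fold higher in macrophage-like cells, C1qa, C1qb, C1qc and C3ar1. Over all 7634 genes with at least 10 CPM in either class, 2.0% were. C3ar1 was 4.87-fold (4.04 to 5.91) higher. Leaving out 1 library at a time gave from 4.27-fold (3.52 to 5.22, without library 1) to 8.66-fold (without library 3). Without library 2 it was 4.64-fold (3.81 to 5.69), so the interval reached below 4 without library 1 and without library 2.

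Within macrophage-like cells each chain varied among libraries. C1qa stood at 6224, 4102, 1972, 3021 and 6006 CPM in libraries 1 to 5, and C1qb at 6352, 4449, 2406, 4742 and 5724 CPM. C1qc stood at 3509, 2522, 1046, 2042 and 3355 CPM. C1qa and C1qc were lower in library 4 than in library 2, while C1qb was higher. Library 3 was lowest for each chain, and libraries 1 and 5 were highest for each chain. The last library held only 20 macrophage-like cells. Library 3 also had the most macrophage-like cells without a UMI of any chain, 30.3% of 145, against 1.32%, 5.65% and 5.93% in libraries 1, 2 and 4. In library 5 none of 20 cells lacked all chains, which by a limit of 3 counts allows a share of up to 15%. All 3 chains were present together in 85.4% of macrophage-like cells and in 12.0% of classical monocyte-like cells, or in 72.2% and 4.99% after thinning.

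**Figure D2:**
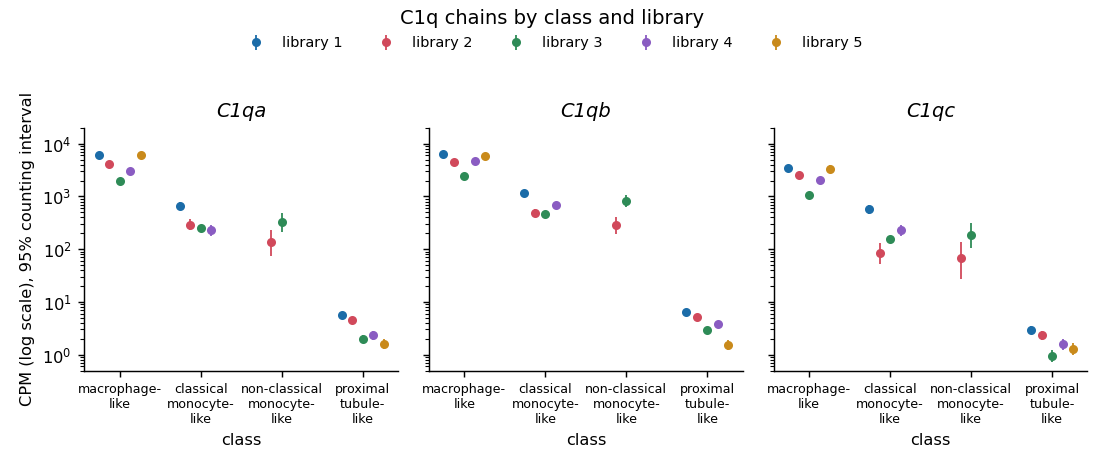
Level of C1qa, C1qb and C1qc (panels, CPM on a log scale) in 4 classes, by library (points, with 95% counting intervals). Only libraries with at least 20 cells of a class are drawn. Macrophage-like cells lie above both monocyte-like classes in every library, and proximal tubule-like cells lie lowest.

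The chains were not in the same proportion in macrophage-like and monocyte-like cells. This comparison was chosen after the values had been seen. The gate compared lineages, and macrophages and monocytes are both myeloid, so a cell with markers of both could stay in 1 of these classes. C1qa was seen in 92 of the 592 classical monocyte-like cells. The part of cells with both sets of markers in the ratios was not tested. The ratio of C1qb to C1qa UMIs was 1.14 (1.11 to 1.16) in macrophage-like cells, 1.89 (1.72 to 2.08) in classical monocyte-like cells and 2.29 (1.70 to 3.12) in non-classical monocyte-like cells. By library the macrophage-like and classical monocyte-like ratios were 1.02 and 1.71 in library 1, 1.08 and 1.68 in library 2, 1.22 and 1.80 in library 3, and 1.57 and 3.00 in library 4. The intervals of the pair did not overlap in any of these 4 libraries. In empty barcodes of libraries 1 to 4 the ratio was 1.27, 1.34, 1.63 and 1.51. The classical monocyte-like ratio lay above the empty-barcode ratio in all 4, with intervals that overlapped in libraries 1, 2 and 3.

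Macrophage-like cells with different marker genes differed in C1q. Cells with a UMI of Arg1, an enzyme of alternatively activated and infiltrating macrophages, held 2485 CPM (2397 to 2575) of C1qa, against 4678 CPM (4605 to 4752) in cells without, and C1qa was lower beyond the intervals in each of the 3 libraries with at least 20 cells on both sides. Cells with Gpnmb, a gene of lipid-laden macrophages, held 2818 CPM of C1qa against 4773 CPM without, although they were deeper (median 10179 against 3759 UMIs). The Gpnmb difference was 2914 against 5192 CPM in library 2 and 2902 against 3128 CPM in library 4, where the intervals overlapped. Cells with Cx3cr1, the fractalkine receptor of resident macrophages, stood at 4831 CPM against 3088 CPM without it, and were higher beyond the intervals in 4 of 4 libraries. For Ccr2, the receptor that draws monocytes from blood, C1qa was 3808 CPM with and 4230 CPM without, but the libraries went both ways, with 4688 against 3895 CPM in library 2 and 1073 against 2990 CPM in library 3. Cx3cr1 and Mrc1 were among the gate markers of this class and Ccr2 among those of classical monocytes.

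C3, the central component that all pathways cleave, was highest in the 521 injured epithelial-like cells, which carry tubule injury markers such as Havcr1, Vcam1, Krt20 and Sox9. It stood there at 519 CPM (499 to 540), against 29.6 CPM (29.0 to 30.3) in the 44819 proximal tubule-like cells. Neutrophil-like cells had 127 CPM (109 to 146), classical monocyte-like cells 111 CPM (98.3 to 126) and pericyte-like cells 81.2 CPM (53.1 to 119), and the intervals of these 3 overlapped. Macrophage-like cells, the main C1q source, held 29.2 CPM (24.5 to 34.6) of C3. Among 32 fibroblast-like cells C3 was 317 CPM (229 to 429), and all 42 UMIs lay outside library 1, which held 11 of these cells.

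C3 was seen in 51.2% of injured epithelial-like cells and in 8.68% of proximal tubule-like cells, or in 25% and 2.26% after thinning. The T-like background was 1.30%, or 0.708% after thinning, but T-like cells were gated to hold little of other lineages. Free RNA was estimated at 36.2%, 11.7%, 10.2% and 23.1% of UMIs in injured epithelial-like cells of libraries 1 to 4. In proximal tubule-like cells it was 20.5% in library 1 and at most 2.82% in libraries 2 to 5. With it subtracted, C3 kept 2537 of 2574 UMIs in injured epithelial-like and 7329 of 7679 in proximal tubule-like cells. The level was 17.5-fold (16.8 to 18.3) higher in injured epithelial-like cells, a log2 ratio of 4.13, and the libraries gave 13.8, 18.5, 6.26 and 16.2-fold for libraries 1 to 4. C3 was 1 of 3 members with at least 10 CPM in either class, beside C4b and Cfb, and the only one at least 4-fold higher. Over all 8925 such genes, 8.72% were.

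The injured epithelial-like class was not uniform, and its parts differed in C3. In a clustering made without the members, 194 of its cells fell in the cluster that held all 32 fibroblast-like cells. These 194 cells had 804 CPM (768 to 841) of C3, against 258 CPM (239 to 279) in the other 327. C3 was higher beyond the intervals in these 194 cells in each of the 3 libraries with at least 20 cells on both sides, with 391 against 189.6, 1155 against 673 and 686 against 64.5 CPM in libraries 1, 2 and 3. The other 327 were not uniform either. C3 stood at 514 CPM (472 to 560) in 128 cells of a cluster led by Cxcl1 and Havcr1 and at 627 CPM (468 to 823) in 27 cells of a cluster led by Akr1c18, but at 33.8 CPM (23.0 to 48.0) in 79 cells of a cluster led by thick ascending limb genes such as Umod and Cldn16. It stood at 86.4 CPM (31.7 to 188) in 33 cells of a cluster led by Gm3776 and Gsta1, and the last 60 cells lay in clusters with fewer than 20 injured cells.

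The higher C3 of injured epithelial-like cells did not hold against the proximal tubule-like cells of the same cluster in every case. The ratio was 6.36 (5.78 to 6.99) in the Cxcl1 cluster, with 1.87, 4.54 and 3.12 in libraries 1, 2 and 3. The pooled ratio lay above each of these because it mixed unequal libraries. Library 2 held 432 of the 543 C3 UMIs of the injured cells, and library 3 held 2567 of the 3605 proximal tubule-like cells. The ratio was 7.17 (5.28 to 9.57) in the Akr1c18 cluster and 2.47 (2.19 to 2.78) in the cluster of the fibroblast-like cells. In the thick ascending limb cluster it was 1.45 (0.876 to 2.38), with 0.551 (0.219 to 1.23) in library 3, and in the Gsta1 cluster it was 2.03 (0.739 to 4.45), and these intervals include 1.

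The 194 cells carried the epithelial genes Cdh16 and Pax8 at 384 and 285 CPM (45.3 and 15.1 CPM in fibroblast-like cells). Of the defining fibroblast genes Lum, Pdgfra and Dpt had 0 UMIs, while Col1a2 stood at 38.8 against 1.55 CPM in the other 327 and Col1a1 at 9.70 against 0.773 CPM. Of the pericyte genes Cspg4 stood at 70.5 against 16.2 CPM, Pdgfrb at 12.7 CPM against 0 UMIs and Rgs5 at 11.8 against 0.773 CPM, while Myh11 stood at 0.422 against 0.386 CPM and Notch3 had 2 UMIs (1981 and 299.9 CPM in pericyte-like cells). The 12 stromal markers summed to 1793 CPM in the 194 cells, of which Tagln gave 1646 CPM, against 23.6 CPM in the other injured epithelial-like cells and 21611 CPM in fibroblast-like cells. Without the tubule cells of the cluster of the fibroblast-like cells, C3 was 9.09-fold higher in injured epithelial-like than in proximal tubule-like cells. The part of the stromal genes in the C3 level was not tested.

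C3 was concentrated in part of the cells of both tubule classes. Among injured epithelial-like cells, 128 cells with 5 or more C3 UMIs (24.6%) carried 89.9% of the C3 UMIs of the class, and the highest cell had 123. Among proximal tubule-like cells, 242 such cells (0.540%) carried 37.0% of the C3 UMIs of the class, and the highest had 118. These cells were deeper than the rest, with medians of 13194 and 10665 UMIs against 5365.5 and 4880 in cells without C3 of the same classes. Injured epithelial-like cells with no leukocyte marker still held 352 CPM (325 to 382) of C3, against 557 and 693 CPM in cells with 1 and 2 of the 53 leukocyte markers, which were also deeper (medians of 5799, 7983 and 17079 UMIs). All 53 leukocyte markers summed to 122 CPM in injured epithelial-like and 72.3 CPM in proximal tubule-like cells. The part of depth and leukocyte RNA in these differences was not tested.

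The proximal tubule-like and injured epithelial-like cells were then split by the injury genes Havcr1, which encodes kidney injury molecule 1, and Vcam1, an adhesion molecule of tubule cells that fail to repair. Cells with neither had 21.2 CPM (20.6 to 21.8) of C3 and cells with Havcr1 alone had 50.3 CPM (47.5 to 53.1). Cells with Vcam1 alone had 328 CPM (314 to 343), and cells with both had 660 CPM (632 to 689). The rank from neither to Havcr1 alone to Vcam1 alone held in libraries 1 to 4, where Vcam1 alone gave 246, 346, 358 and 204 CPM and Havcr1 alone gave 46.9, 103, 41.4 and 54.4 CPM. In library 5, Havcr1 alone gave 5.88 and neither gave 7.0 CPM. Cells with both, of which library 2 held 139 of 237, stood at 330.3, 831 and 257 CPM in libraries 1, 2 and 3, so they were above Vcam1 alone in libraries 1 and 2 and below it in library 3. Outside the cluster of the fibroblast-like cells the 4 levels were 20.6, 49.9, 201 and 515 CPM. Havcr1 and Vcam1 were also gate markers of the injured class, and cells with both were the deepest (median 10479 UMIs against 4908 with neither).

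**Figure D3:**
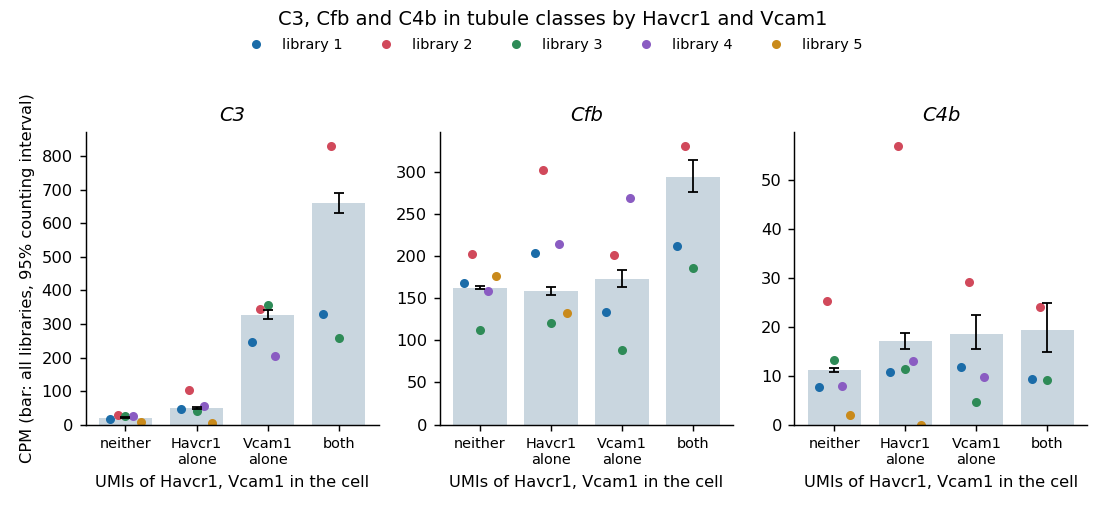
C3, Cfb and C4b (panels, CPM) in proximal tubule-like and injured epithelial-like cells split by UMIs of Havcr1 and Vcam1. Bars give all libraries with 95% counting intervals and points give libraries with at least 20 cells. C3 goes from 21.2 CPM with neither gene to 660 CPM with both, while Cfb differs less, from 158 to 294 CPM.

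Among libraries with at least 20 cells of the class, library 2 held the most C3 in injured epithelial-like, proximal tubule-like, neutrophil-like and classical monocyte-like cells. Injured epithelial-like cells held 324, 939, 194 and 523 CPM of C3 in libraries 1 to 4. Library 5 had 5 injured epithelial-like cells, which held 139 UMIs of C3 or 2628 CPM, and without it C3 was 14.4-fold higher in that class than in proximal tubule-like cells. Proximal tubule-like cells held 23.5, 50.9, 31.0, 32.4 and 8.64 CPM in libraries 1 to 5. Neutrophil-like cells held 40.1, 210, 50.2 and 74.3 CPM in libraries 1 to 4, so the neutrophil C3 level rested largely on library 2. Classical monocyte-like cells ranged from 5.66 to 182 CPM over 4 libraries, so their pooled level was not steady either. Empty barcodes held 12.4, 84.1, 48.7, 95.3 and 15.9 CPM of C3, above the proximal tubule-like level in libraries 2 to 5. C3 was at least 4-fold higher in neutrophil-like than in macrophage-like cells (4.33-fold, 3.46 to 5.44), the only member of 9 to be so, and over all 7843 genes tested 8.01% were. Without library 2 the ratio was 2.05 (1.38 to 3.02) and without library 4 it was 3.86 (3.06 to 4.87), so it passed 4-fold in neither case.

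Segments of the proximal tubule differed for C3, C4b and Cfb. Cells with the early-segment genes Slc5a2 or Slc5a12 alone had 39.8 CPM (38.6 to 41.1) of C3, against 16.4 CPM (15.6 to 17.2) in cells with the late-segment genes Slc7a13 or Cyp7b1 alone. Early-segment cells were higher beyond the intervals in 4 of 5 libraries, and library 4 went the other way, with 26.3 against 33.0 CPM. C4b was also higher in the early segment, with 17.1 and 7.02 CPM, in 5 of 5 libraries. Cfb had the opposite order in 5 of 5 libraries, with 135 CPM (133 to 138) in early-segment and 190.4 CPM (188 to 193) in late-segment cells. These groups held 17885 and 12630 cells with medians of 5145 and 6457 UMIs.

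C4b encodes C4, which the proteases of the classical and lectin pathways cleave. It was low, at 12.1 CPM (11.7 to 12.5) in proximal tubule-like cells, 11.6 CPM (8.72 to 15.2) in macrophage-like cells and 8.87 CPM (6.45 to 11.9) in injured epithelial-like cells. These intervals overlapped, but the ratio of injured epithelial-like to proximal tubule-like cells was 0.734 (0.532 to 0.988), an interval that excludes 1. The proximal tubule-like class still held 89.6% of all C4b UMIs and 77.6% of the cells. By library it stood there at 7.90, 27.9, 12.9, 8.43 and 1.95 CPM, so library 2 was highest, and empty barcodes held 2.16, 11.3, 15.2, 67.2 and 13.7 CPM. The 131 proximal tubule-like cells of a cluster led by interferon-induced genes such as Ifit1, Ifit3 and Iigp1 had 52.6 CPM (39.4 to 68.8) of C4b, a cluster singled out after the values had been seen. C4b was above the other proximal tubule-like cells in 4 of 4 libraries with at least 20 such cells, beyond the intervals in libraries 2 (117 against 27.4 CPM) and 4 (29.0 against 8.30 CPM). C4b has a near-identical neighbour, C4a, which was counted at 68 UMIs in all. Reads that match both genes are not counted, so the level of C4b is uncertain.

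Fibroblast-like cells had 4 UMIs of C4b, or 30.2 CPM (8.23 to 77.3), and the ratio to proximal tubule-like cells was 2.50 (0.680 to 6.40). That interval includes 1, so no difference was detectable at this depth, and with classes taken from clusters the ratio was 0.919. Of 4 members with at least 10 CPM in either class, 2 were at least 4-fold higher in fibroblast-like cells, C3 (10.7-fold, 7.71 to 14.5, and 20.5-fold without library 1) and Cfp, which rested on 2 UMIs. Over all 9473 such genes 18.7% were, with only 32 fibroblast-like cells.

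Cfb encodes factor B, the protease of the alternative pathway. It stood at 165 CPM (163 to 166) in proximal tubule-like cells and 122 CPM (112 to 132) in injured epithelial-like cells, and every other class with at least 50 cells held 28.3 CPM or less. It was seen in 48.0% of proximal tubule-like cells and 37.6% of injured epithelial-like cells, or 14.3% and 11.6% after thinning, against a T-like background of 2.69% and 1.21%. The injured level was 0.741-fold (0.683 to 0.803) that of proximal tubule-like cells. Libraries 1 to 4 gave 0.586, 0.970, 0.518 and 0.740, and the intervals of libraries 2 and 4 included 1. The lower level did not hold in every cluster of injured cells. In the Cxcl1 cluster injured epithelial-like cells held 239 CPM (210 to 270.1) of Cfb, 1.40-fold (1.23 to 1.59) that of its proximal tubule-like cells, although libraries 1, 2 and 3 gave 0.807, 1.29 and 1.15 and the intervals of libraries 1 and 3 included 1. The pooled 1.40 lay above each of these because it mixed unequal libraries, with 2567 of 3605 proximal tubule-like but 51 of 128 injured cells from library 3. The 27 cells of the Akr1c18 cluster held 374 CPM (254 to 531), 2.14-fold (1.44 to 3.06). The 194 cells clustered with fibroblast-like cells held 109 CPM (96.4 to 123), 0.689-fold (0.564 to 0.844) that of the proximal tubule-like cells there. The 79 cells of the thick ascending limb cluster held 9.82 CPM (4.49 to 18.6), 0.107-fold (0.048 to 0.207). The 33 of the Gsta1 cluster held 130 CPM (59.3 to 246), 0.976-fold (0.445 to 1.86) that of its proximal tubule-like cells, so the ratio of the class pools cells on both sides of the proximal tubule level. Proximal tubule-like cells of libraries 1 to 5 held 169, 213, 116, 165 and 176 CPM, a narrower range than for C3 or C4b. Empty barcodes held 58.7, 105, 143, 203 and 223 CPM of Cfb, above the proximal tubule-like level in libraries 3, 4 and 5.

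Within both tubule classes Cfb was higher in cells that also had C3. With cells split by a C3 UMI in the thinned counts, Cfb stood at 226 CPM (214 to 239) in proximal tubule-like cells with C3 and 163 CPM (162 to 165) in those without. It was higher with C3 beyond the intervals in 4 of 5 libraries, while library 5 gave 141 CPM with and 176 CPM without. In injured epithelial-like cells it was 213 CPM (189 to 239) with C3 and 85.4 CPM (76.1 to 95.6) without, and higher with C3 in 3 of 3 libraries, beyond the intervals in 2. Median depths were 5289 and 5697 UMIs in the proximal tubule-like pair and 8737 and 6793 UMIs in the injured pair. By Havcr1 and Vcam1, Cfb was 162 CPM with neither, 158 CPM with Havcr1 alone, 173 CPM with Vcam1 alone and 294 CPM with both. The pooled value of Havcr1 alone mixed unequal libraries, since library 3, with the lowest Cfb, held 2385 of its 3191 cells. Within libraries 1 to 4, Cfb was 204, 303, 120.2 and 215 CPM with Havcr1 alone against 168, 202, 112 and 158 CPM with neither, higher beyond the intervals in 3. In library 5 it was 132 against 176 CPM, from 34 cells with Havcr1. Vcam1 alone had no common direction for Cfb, with 134, 201, 88.4 and 269 CPM in libraries 1 to 4. Of the members measured in tubule cells, C3 thus spanned a wider range across these splits than Cfb.

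Cfp encodes properdin, which stabilises the alternative pathway convertase and is made by leukocytes. It stood at 309 CPM (271 to 351) in the 137 dendritic-like cells, 210 CPM (192 to 230) in classical monocyte-like cells, 205 CPM (192 to 218) in macrophage-like cells, 119 CPM (103 to 138) in neutrophil-like cells and 97.2 CPM (60.9 to 147) in non-classical monocyte-like cells. In these pooled values dendritic-like cells were highest, and the intervals of the next pair and of the last pair overlapped. By library the order was not the same throughout. Dendritic-like cells held 372 and 261 CPM in libraries 1 and 2, the libraries with at least 20 of them, against 132 and 139 CPM in macrophage-like and 164 and 234 CPM in classical monocyte-like cells, and in library 2 the intervals of dendritic-like and classical monocyte-like cells overlapped. Macrophage-like cells held 329 and 349 CPM in libraries 3 and 4, within the range of those dendritic-like values. Cfp was seen in 56.9% of dendritic-like, 42.4% of macrophage-like and 40.0% of classical monocyte-like cells, or in 24.3%, 14.7% and 16.4% after thinning. The T-like background was 0.279% before thinning.

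The ratio of classical monocyte-like to macrophage-like cells for Cfp was 1.03 (0.920 to 1.15), and the libraries did not share a direction. It was 1.25, 1.68, 0.639 and 0.653 in libraries 1 to 4, and 0.693 (from all libraries) with classes taken from clusters. Macrophage-like cells varied more among libraries, with 132, 139, 329, 349 and 56.4 CPM of Cfp in libraries 1 to 5, than classical monocyte-like cells, with 164, 234, 210 and 228 CPM in libraries 1 to 4. The value of library 5 is uncertain, since 929 of the 931 Cfp UMIs of macrophage-like cells lay outside it and it held 20 such cells. Macrophage-like cells with Mrc1, the mannose receptor, held 281 CPM (260 to 304) of Cfp and those without held 132 CPM (117 to 147), a difference seen beyond the intervals in 4 of 4 libraries. No member was at least 4-fold higher in classical monocyte-like than in macrophage-like cells, against 2.40% of all 7634 genes.

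C3ar1 and C5ar1 encode the receptors for C3a and C5a. C3ar1 stood at 256 CPM (242 to 272) in macrophage-like cells and 52.7 CPM (43.8 to 62.9) in classical monocyte-like cells. Non-classical monocyte-like cells had 17.7 CPM from 4 UMIs, and neutrophil-like cells 1.29 CPM from 2 UMIs. It was seen in 58.3% of macrophage-like cells, or 21.1% after thinning, and in 0.175% of neutrophil-like cells. T-like cells had 0 UMIs in 1077 cells, which by a limit of 3 counts allows a share of cells with a UMI of up to 0.279%.

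The ratio of macrophage-like to neutrophil-like cells for C3ar1 was 199 (54.8 to 1641), from 1167 against 2 UMIs. In libraries 1, 3 and 4 neutrophil-like cells had 0 UMIs. A limit of 3 counts per library gave ratios of 5.39, 52.2 and 10.1, with exact intervals that began at 4.36, 42.0 and 8.08. Without library 2, neutrophil-like cells had no UMI at all. A limit of 3 counts over the class then gave a ratio of 72.0 (the exact interval of the log2 ratio began at 5.87), while without library 3 the ratio was 119.6. Of the 9 members, 4 were at least 4-fold higher in macrophage-like than in neutrophil-like cells, again C1qa, C1qb, C1qc and C3ar1, against 10.3% of all 7843 genes. Macrophage-like cells of libraries 1 to 5 held 324, 251, 254, 187 and 169 CPM of C3ar1, a narrower range than for the C1q chains or Cfp. The value of library 5 is uncertain here too, since 1161 of the 1167 UMIs lay outside it and it held 20 such cells.

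C5ar1 had a different order. It stood at 409 CPM (378 to 443) in neutrophil-like cells, 235 CPM (221 to 250) in macrophage-like cells, 131 CPM (116 to 146) in classical monocyte-like cells and 97.2 CPM (60.9 to 147) in non-classical monocyte-like cells, with no UMI in 137 dendritic-like cells, which by a limit of 3 counts allows a share of cells with a UMI of up to 2.19%. T-like cells gave 0.186% of cells with a UMI. It was seen in 39.4% of neutrophil-like cells at a median of 1275 UMIs and in 54.3% of macrophage-like cells, but after thinning the shares were 30.3% and 21.8%. The same 137 dendritic-like cells had 2 UMIs of C3ar1. Of the 22 C5ar1 UMIs of non-classical monocyte-like cells 18 came from library 3, which gave 244 CPM (144 to 385) against 29.0 CPM (5.99 to 84.9) in library 2.

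Neutrophil-like cells held 1.74-fold (1.57 to 1.92) the C5ar1 level of macrophage-like cells. By library the ratio was 1.84, 3.09, 0.856 and 1.29, and the intervals of libraries 3 and 4 included 1. Without library 2 it was 1.13, a log2 ratio of 0.18 (-0.03 to 0.38), and with classes taken from clusters it was 1.05, a log2 ratio of 0.07 (-0.05 to 0.19). Both of these intervals include no difference, so the higher C5ar1 of neutrophil-like cells was not detectable without library 2 or in classes from clusters. Neutrophil-like cells held 541, 508, 322 and 266 CPM in libraries 1 to 4, and macrophage-like cells 293, 165, 376, 207 and 141 CPM in libraries 1 to 5. Of the 1071 C5ar1 UMIs of macrophage-like cells, 1066 lay outside library 5. Classical monocyte-like cells held 56.6, 28.3, 173 and 41.4 CPM, so library 3 was highest in both macrophage-like and classical monocyte-like cells. Classical monocyte-like cells with C3ar1 in thinned counts had 348 CPM (245 to 480) of C5ar1, against 121 CPM (107 to 136) in those without. Library 3 alone had 20 cells on both sides, with 431 against 159 CPM.

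**Figure D4:**
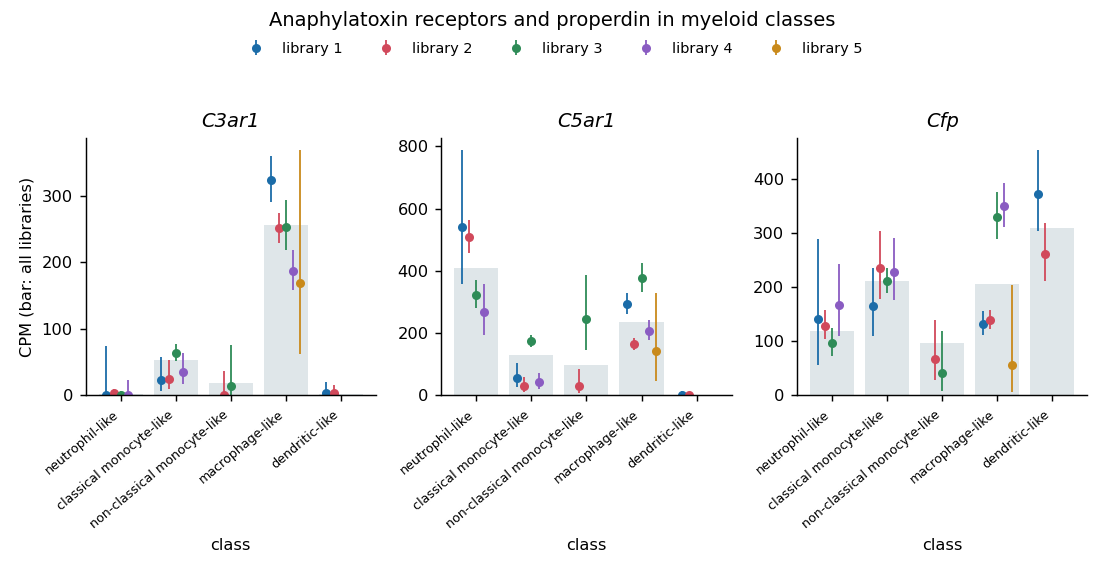
Level of C3ar1, C5ar1 and Cfp (panels, CPM) in 5 myeloid classes. Bars give all libraries, and points with 95% counting intervals give libraries with at least 20 cells of a class. C3ar1 is near 0 in neutrophil-like cells, C5ar1 is present in neutrophil-like and macrophage-like cells, and Cfp in macrophage-like cells separates libraries 3 and 4 (329 and 349 CPM) from libraries 1 and 2 (132 and 139 CPM).

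The share of molecules held by a class depended on its size as well as on its level. Macrophage-like cells were 1.37% of kept cells and held 74.4% of C1qa, 71.8% of C1qb, 75.1% of C1qc and 69.1% of C3ar1 UMIs. Proximal tubule-like cells were 77.6% of kept cells and held 92.8% of Cfb and 56.4% of C3 UMIs, while injured epithelial-like cells added 18.9% of C3. C5ar1 was divided among macrophage-like (38.1%), neutrophil-like (22.5%) and classical monocyte-like cells (10.8%), and Cfp among macrophage-like (33.8%), classical monocyte-like (17.8%) and dendritic-like cells (8.65%). Mixed and unclassed cells held from 4.92% of Cfb to 24.0% of C5ar1. These are shares of captured molecules, not of the intact kidney.

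**Figure D5:**
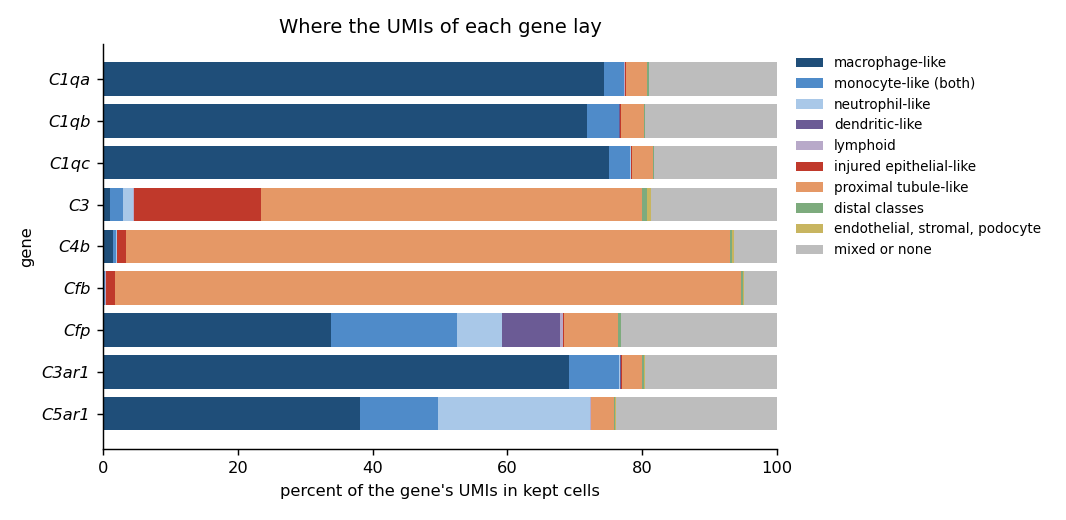
Share of the UMIs of each gene (percent of its UMIs in kept cells) by class group. Macrophage-like cells take most of the C1q and C3ar1 bars, proximal tubule-like cells take 92.8% of Cfb, 89.6% of C4b and 56.4% of C3, and Cfp and C5ar1 are divided mainly among myeloid classes and cells of mixed or no class, with 8.10% of Cfp and 3.45% of C5ar1 in proximal tubule-like cells.

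Other genes of the pathway gave a background for these members. Of 41 further complement genes, 20 reached 10 CPM in a class with at least 50 cells, as did 40.3% of all 32285 genes. The other 21 did not, among them Colec10, C8b and Cd55b with 0 UMIs. In the classical pathway 3 of 6 genes reached that level, the proteases C1s1 (131 CPM, 94.6 to 177) and C1ra (46.9 CPM, 26.2 to 77.3), both highest in pericyte-like cells, and C2, with 26.8 CPM in injured epithelial-like and 23.8 CPM in proximal tubule-like cells. In the lectin pathway 1 of 8 did, Masp1, on 2 UMIs in podocyte-like cells. The alternative pathway protease factor D (Cfd) had 2 UMIs in all. Of 7 terminal components C8g alone reached 10 CPM, at 26.2 CPM in proximal tubule-like cells, and Hc, which encodes C5, the source of the C5aR1 ligand, had 13 UMIs in all.

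Of 6 fluid-phase regulators 5 reached 10 CPM, as did 40.3% of all 32285 genes. Among these 5, C4bp rested on 4 UMIs in pericyte-like cells (12.5 CPM, 3.41 to 32.0). Serping1, the C1 inhibitor, stood at 309 CPM (251 to 377) in pericyte-like cells and 1503 CPM (1301 to 1727) in the 32 fibroblast-like cells. Clu, which encodes clusterin, reached 12020 CPM in principal-like cells. Of 6 membrane regulators 4 reached 10 CPM, among them Cd55 in B-like cells (347 CPM), Cd59a in podocyte-like cells (984 CPM, in 101 cells with a median of 853 UMIs) and Cr1l in endothelial-like cells (149 CPM). The podocyte-like cells also held 2624 CPM of red-cell genes such as Hbb-bs, against 138 CPM or less in other named classes. The part of red-cell RNA in the Cd59a level was not tested. Of 7 other receptors 6 did, with C5ar2, the second C5a receptor, at 60.1 CPM in neutrophil-like cells and Itgam, a chain of complement receptor 3, at 296 CPM in the same class. The C3b receptor Vsig4 of resident macrophages had 1 UMI in all.

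Of 9 of these genes tested between the tubule classes, 5 were at least 4-fold higher in injured epithelial-like cells, C1ra, C1s1, Serping1, Clu and Cd59a, against 8.72% of all 8925 genes. C8g alone was at least 4-fold lower, at 4.84 against 26.2 CPM, where 2.45% of all genes were. C1s1 stood at 21.6 against 0.54 CPM, Serping1 at 19.0 against 0.42 CPM and Clu at 904 against 97.5 CPM. For C1ra, C1s1, Serping1 and Cd59a most UMIs of the class lay in the 194 injured epithelial-like cells that clustered with fibroblast-like cells. C1s1 stood at 42.2 CPM (34.3 to 51.3) in these and 2.70 CPM (1.09 to 5.57) in the other 327, and Serping1 at 39.7 CPM (32.1 to 48.5) in these with 0 UMIs in the other 327. C1ra stood at 29.5 against 8.5 CPM and Cd59a at 46.8 against 18.2 CPM, and outside the cluster both were less than 4-fold above proximal tubule-like cells (2.25 and 6.73 CPM). Clu did not follow that division, with 851 CPM (814 to 889) in the 194 cells and 952 CPM (915 to 990) in the other 327. The 194 cells also carried the stromal markers given above for C3, and the part of those in these levels was not tested. Between macrophage-like and classical monocyte-like cells none of 8 tested was at least 4-fold higher in macrophage-like cells, where 2.0% of all genes were, and Clu was at least 4-fold lower, where 2.40% were.

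The genes most like each member were found by Pearson's r of log2(CPM + 1) over the 17 classes, among 12998 genes. This is a description, since classes share libraries and gate markers. C1qa was most like F7 (r = 0.954), which encodes coagulation factor VII, and Trem2 (0.951), C1qb most like F7 (0.960), C1qc most like Trem2 (0.943), and C3ar1 most like Trem2 (0.942), a gate marker of macrophages. Cfp was most like Pirb (0.984), C5ar1 most like Clec4d (0.958) and Il1a (0.943), and Cfb most like Aspa (0.937). C3 had a weaker best match, the neutrophil-attracting chemokine Cxcl1 (0.777), and C4b was most like Tfec (0.891).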

How the data were processed

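Single-cell RNA-seq of kidney was read from 1 gene-by-barcode matrix of raw counts that the authors deposited for the whole series. The labels give Cell Ranger 6.0 and mm10, and the matrix header gives version 6.0.1. The deposited counts are UMIs per gene, not normalized, and held 10474594 barcodes in 5 libraries.

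Cells were called anew after the 2-step Cell Ranger scheme (70446 barcodes), and those with at least 500 UMIs, at least 200 genes and at most 25% mitochondrial UMIs were kept (57752, with 319812328 UMIs). Classes needed 2 markers, a score of at least 0.1, other lineages below 0.5 of the top score and, outside leukocytes, at most 2 leukocyte markers. Doublets were treated by setting aside cells of mixed lineage, and Scrublet scores served as an alternative. UMIs were summed per class, with Poisson intervals for levels and conditional binomial intervals for ratios. A gene was called at a ratio of 4 among genes with at least 10 CPM in either class. No p-value was computed for any comparison. Groups could not be compared because the libraries could not be tied to them, and classes were compared by ratios alone. Genes are named as the 9 members, the listed complement genes and the 3 genes most like each member. Some of these genes are not reported here. The ratio script was tested on simulated data. The members and lists were chosen with earlier results of these data known, and the gate limits were set after cells and complement levels had been seen. Work was done in Python 3.11.15 with numpy 2.4.6, scipy 1.17.1, pandas 2.3.3, scikit-learn 1.9.0, scanpy 1.11.5, leidenalg 0.10.2 and igraph 0.11.9.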

Additional observations from a re-analysis of the deposited data

Results flagged for a closer look

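Called barcodes above the 25% mitochondrial limit were outside every comparison, and all 9 members had counts in them. These 12181 barcodes, with a median of 3168 UMIs, were not split by class. Summed over them, Cfb stood at 171 CPM, C3 at 19.9 CPM and C4b at 9.75 CPM. C1qb stood at 9.09 CPM, C1qa at 7.25 CPM and C1qc at 4.66 CPM. Cfp had 1.21 CPM, C5ar1 1.16 CPM and C3ar1 0.515 CPM. No library could be tied to the sham group, so no control level stands beside these values, and each lies above the limit that a count of 0 allows.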

How the results depend on the processing

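The ratios of the C1q chains, C3, Cfb and C3ar1 kept their direction under every alternative run, the intervals of C5ar1 included 0 without library 2 (-0.03 to 0.38) and with classes from clusters (-0.05 to 0.19), Cfp changed direction and C4b, whose interval includes 0, gave -0.12 with classes from clusters. Values below are log2 ratios for the comparisons of the report, whose own values were 3.48 for the C1q chains, 4.13 for C3, 1.32 for C4b, -0.43 for Cfb, 0.04 for Cfp, 7.63 for C3ar1 and 0.80 for C5ar1. C3 was 4.29 with no calling step (79202 barcodes), 4.25 with a mitochondrial limit of 10% (28058 cells) and 4.38 with free RNA subtracted. With 3 markers in the gate the C1q chains gave 3.79 and C3 gave 4.34. As the mean of each cell's CPM, the C1q chains gave 3.91, C3 3.89 and Cfb -0.29. With classes from clusters, the C1q chains gave 3.26, Cfp -0.53 and C5ar1 0.068. Removing 5950 cells by Scrublet score moved no value beyond its interval, although C3ar1 gave 8.59, and 8.66 with classes from clusters. Alternatives chosen after seeing the data gave C3 4.03 with 1 leukocyte marker allowed, and C3 3.18 and Cfb -0.30 without the tubule cells that clustered with fibroblast-like cells.

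Leaving out 1 library at a time gave 3.24 to 3.55 for the C1q chains, 3.67 to 4.58 for C3, 0.90 to 1.80 for C4b and -0.93 to -0.22 for Cfb. Cfp ranged from -0.28 to 0.27 and C5ar1 from 0.18 (without library 2) to 1.16. C3ar1 ranged from 6.90 (without library 3) to 7.64 where neutrophil-like cells had a UMI. Without library 2 they had 0, and a limit of 3 counts gave 6.17, with an exact interval that began at 5.87 and had no upper end. No paired analysis of groups was possible because each group has 1 replicate and the libraries carry no group. Classes were compared within libraries as ratios, and no paired test of classes was run. Depth limits C4b, C3ar1 in neutrophil-like cells and all values of the 32 fibroblast-like cells.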

Other observations

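Macrophage-like cells with and without marker genes were also compared for the members other than C1q. C4b stood at 21.6 CPM (16.0 to 28.7) in cells with Mrc1 and 2.14 CPM (0.696 to 5.00) in cells without it, from 48 and 5 UMIs. It was higher with Mrc1 beyond the intervals in 2 of 4 libraries, and library 4 had 0 UMIs with Mrc1. Cfp was 276 CPM (249.9 to 304) with Ccr2 and 170.4 CPM (156 to 186) without it, above in 4 of 4 libraries and beyond the intervals in 2. C3ar1 stood at 359 CPM (316 to 406) with Cx3cr1 and 258 CPM (209 to 315) without it in library 1, but at 171 CPM (126 to 229) with it and 305 CPM (255 to 361) without it in library 3, so the direction was opposite. With Ccr2, C3ar1 was lower in 4 of 4 libraries, but beyond the intervals only in library 2, at 199 CPM (162 to 242) against 269.5 CPM (243 to 298). C5ar1 was above with Mrc1 in 3 of 4 libraries, but beyond the intervals only in library 2, at 195 CPM (168 to 226) against 135 CPM (113 to 160). Library 4 had the opposite order, at 203 against 211 CPM.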
